A study of Mus musculus with 12 samples.

Results

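Untreated lung was compared with untreated liver on 6 of the 12 Agilent expression arrays of the series, 3 arrays for each tissue. The arrays were taken by their titles, which number the lung arrays 4, 5 and 6 and the liver arrays 1, 3 and 4 and give a dose of 0 mM. All RNA came from female B6C3F1/Nctr mice, a first-generation hybrid of C57BL/6 and C3H stock, and the labels give these animals no agent and no engineered allele. They are described as age-matched controls, with no age stated. The other 6 arrays came from mice given acrylamide at 0.7 mM, by a route and for a time not given in the sources used here, and 3 of lung and 3 of liver served as a second set for the same contrast. A tissue field that reads liver on every array is contradicted by the titles and source names of the 6 lung arrays, so the tissue was checked on marker genes.

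Each array gives 1 Cy3 intensity per spot, and levels below are log2 intensity minus the 75th percentile of the same array, so a level of 0 is the brightness that 25% of spots exceed. A difference is lung minus liver on that scale, printed with its standard error as ± SE over 3 arrays per tissue, and 1 unit is a factor of 2. A gene was called when the adjusted p of limma's moderated test (Benjamini-Hochberg over 22441 genes) lay under 0.05, and "higher" is used only of called genes. The difference of a gene comes from its brightest spot, and where that spot was above background on no array of the lower tissue the difference is a lower bound and is written as such. Where it was above background on some but not all arrays of the lower tissue, as for Cyp8b1, the difference is printed as it is. Its size is then uncertain. Levels of different genes come from different probes and are not compared. The labels do not say that the arrays of a tissue came from separate animals, so p-values measure the spread among these samples, which may be technical. The lung arrays lay on one slide and the liver arrays on another, and a slide effect and a tissue difference cannot be told apart. The 75th percentile was 424 to 482 on liver and 1047 to 1214 on lung arrays, and 46450 to 48041 and 49709 to 50702 of the 62976 spots were above background.

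Liver and lung do different work for the body. Hepatocytes, which make up most of the liver's mass, secrete most plasma proteins, make bile and urea, store and release glucose, and oxidise foreign compounds, while sinusoidal endothelium and Kupffer cells clear the blood that passes them. The lung exchanges gas across thin type 1 cells lying on capillaries, keeps its alveoli open with surfactant from type 2 cells, and cleans its airways with secretory club cells and beating cilia.

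The markers followed the titles on all 6 arrays. All 8 hepatocyte markers were higher in liver: Alb, the gene of serum albumin, stood at 3.10, 3.10 and 4.21 on the lung arrays and 8.35, 8.52 and 8.61 on the liver arrays, and Cps1, the entry enzyme of the urea cycle, at -6.25, -7.17 and -6.16 on the lung arrays and 5.10, 4.96 and 4.96 on the liver arrays. All 6 type 2 markers were higher in lung, where Sftpc, the surfactant protein C gene, stood at 8.57, 8.69 and 8.51 on the lung arrays and -7.45, -5.83 and -6.13 on the liver arrays. The arrays of the 2 tissues did not overlap for any of the 3. Alb has another spot, which put it further toward liver: the 2 spots differed by -8.21 to -5.02. The mean of the hepatocyte markers was 7.65 to 7.75 on liver and -2.00 to -1.05 on lung arrays, and that of the type 2 markers was -4.16 to -3.93 on liver and 5.72 to 5.94 on lung arrays. The type 1, ciliated and alveolar macrophage markers were likewise higher in lung without exception, and the sinusoidal endothelial and Kupffer cell markers in liver. Of the 3 club cell markers, Scgb1a1 and Scgb3a2 were higher in lung, but Cyp2f2, a P450 used as a club cell marker, stood at 7.64, 7.68 and 7.56 on the lung arrays and 7.31, 7.17 and 7.40 on the liver arrays and was not called (0.33 ± 0.13 SE, adjusted p = 0.0535).

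Markers of other organs varied among the arrays and are given here because they touch later results. The mean of 4 heart muscle markers was 3.87, 2.36 and -0.10 on lung arrays 4, 5 and 6 and at most -2.75 on liver arrays. That of 3 fat cell markers was 1.19, 1.54 and -1.80 on the same lung arrays and -2.07, -7.02 and -4.65 on liver arrays 1, 3 and 4. Among skeletal muscle markers, Acta1 was higher in lung by 3.79 ± 0.59 and Myh4 in liver by 2.78 ± 0.20, while Ckm was not called. Of the T cell markers Cd3e was higher in liver by 1.90 ± 0.31 and Cd8b1 in lung by 1.28 ± 0.34, Ccr9 was not called, and the thymic gene Rag1 was above background on too few arrays to be tested. Of the pancreas markers Pnlip was too dim to be tested and Cpa1 was not called, whereas the elastase gene Cela1 stood at -0.34, 0.44 and 0.13 on the lung arrays and 5.76, 5.57 and 5.82 on the liver arrays. In whole tissue, fewer cells of a type and less RNA per cell cannot be told apart, which holds for all results below.

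Of 26228 named genes, 22441 were bright enough to be tested. Lung was higher for 7179 (32.0%) and liver for 9521 (42.4%), so 74.4% were called, and the arrays of the tissues did not overlap for 78.8%. The counts of each list below are to be read against these shares, since counts near them do not set a list apart. Differences of at least 4-fold were called for 3439 genes higher in lung (15.3%) and 3959 higher in liver (17.6%). The most extreme differences were mostly toward liver: 323 genes were at least 256-fold higher there and 114 in lung, against 1086 and 1242 at the 16-fold mark. The median over all genes was -0.28, and among the 1954 genes within 4-fold of background it was -1.32. The background limit lay further below the percentile in lung (-8.62) than in liver (-7.24), and 482 of the 4-fold calls toward liver and none toward lung were that dim. The lower limit in lung leaves more room for large differences toward liver, and its part in the 256-fold counts was not tested. Quantile scaling moved the median by 0.29 to 0.01 and made 51.0% of calls higher in lung, against 43.0%, so small differences and the balance of the 2 directions depend on the scaling. Where a gene has several spots the brightest was used, and of 8391 genes with more than 1 tested spot 845 (10.1%) had spots called in both directions. Arrays of 1 tissue correlated at 0.984 to 0.990 over tested genes and arrays of different tissues at 0.751 to 0.779.

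**Figure D1:**
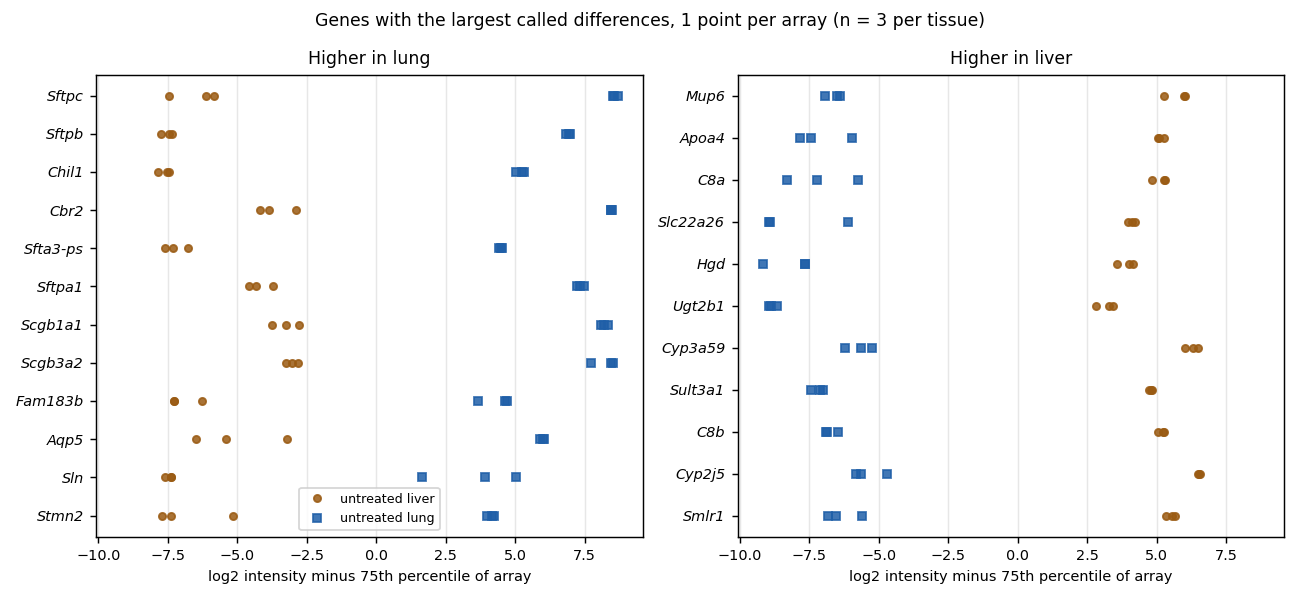
Genes with the largest called difference in each direction, 12 for lung and 11 for liver, with the level on every array (log2 intensity minus the array's 75th percentile) as a point, liver arrays in brown and lung arrays in blue. The means of the tissues lie more than 10 log2 units apart for each gene, and the spread within a tissue is widest for Sln in lung (SD 1.73) and Aqp5 in liver (SD 1.67).

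Surfactant led the genes higher in lung. Sftpc differed by 15.06 ± 0.41 and Sftpb, the surfactant protein B gene, which stood at 6.81, 6.93 and 6.98 on the lung arrays and -7.44, -7.76 and -7.34 on the liver arrays, by at least 14.15. Sftpa1 followed with 11.54 ± 0.24 and Sfta3-ps, a surfactant-associated pseudogene, with 11.69 ± 0.23. Other products of airway and alveolar cells were among the 12: Chil1, a chitinase-like protein (at least 12.43), Cbr2, a lung carbonyl reductase (12.09 ± 0.33), and the secretoglobins Scgb1a1 (11.47 ± 0.25) and Scgb3a2 (11.26 ± 0.25). Aqp5, the water channel of type 1 cells, stood at 5.98, 6.05 and 5.89 on the lung arrays and -5.41, -6.49 and -3.22 on the liver arrays and differed by 11.01 ± 0.77. Fam183b, a gene of ciliated cells, differed by 11.25 ± 0.40, and Stmn2, known as a neuronal regulator of microtubules, by 10.88 ± 0.65. Sln, a regulator of the calcium pump of atrial muscle, stood at 5.04, 3.93 and 1.65 on the lung arrays and -7.38, -7.60 and -7.39 on the liver arrays, so its lung arrays spread over more than 3 units in step with the heart muscle markers.

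Plasma proteins and enzymes of hepatocytes led the genes higher in liver. Mup6, a major urinary protein, stood at -6.94, -6.49 and -6.40 on the lung arrays and 6.03, 5.27 and 5.97 on the liver arrays and differed by 12.36 ± 0.26. Apoa4, an apolipoprotein of lipid transport, followed with 12.21 ± 0.47, and the complement genes C8a (12.20 ± 0.61) and C8b (11.92 ± 0.17) were in the group. Hgd, which opens the ring of homogentisate in tyrosine breakdown, stood at -7.64, -9.17 and -7.66 on the lung arrays and 4.0, 3.58 and 4.13 on the liver arrays. Enzymes and carriers for foreign compounds and steroids made up most of the rest: Slc22a26 (12.08 ± 0.76), Ugt2b1 (at least 11.80), Cyp3a59 (11.97 ± 0.27), Sult3a1 (11.96 ± 0.15) and Cyp2j5 (11.90 ± 0.29), with the small membrane protein gene Smlr1 (11.83 ± 0.32).

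Proteins that the liver secretes into plasma were higher in liver almost without exception. All 25 carriers and inhibitors tested were called toward liver, with a median difference of -8.88. Transthyretin (Ttr) differed by 10.87 ± 0.36, the murinoglobulin Mug1 by 10.76 ± 0.38, the corticosteroid carrier Serpina6 by 10.57 ± 0.17 and the haem carrier Hpx by 10.44 ± 0.21. At the other end, transferrin (Trf) differed by 2.83 ± 0.13 and haptoglobin (Hp), which binds free haemoglobin, by only 1.28 ± 0.13, its lung arrays standing at 7.64, 7.68 and 7.52. Ceruloplasmin (Cp) was higher in liver by 3.61 ± 0.29 at its brightest spot, while another of its spots was called toward lung.

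Promoters of 2 hepatocyte genes are shown because they hold the motif of HNF4A, a factor described further on, within the 150 bases before the start of transcription (RefSeq, GRCm38.p6, strand of the gene, the matched letters in capitals). F9, coagulation factor IX, at chrX:59999314-59999463 on the plus strand, holds the motif CAAAGTNCA on the opposite strand, and Cyp8b1, the 12-alpha-hydroxylase of bile acid synthesis, at chr9:121916306-121916455 on the minus strand, holds it on its own strand. A match is a description of the letters and was not tested for binding.
F9: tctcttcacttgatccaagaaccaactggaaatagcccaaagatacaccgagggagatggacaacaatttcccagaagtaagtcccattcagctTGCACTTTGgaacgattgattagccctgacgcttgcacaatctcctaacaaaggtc
Cyp8b1: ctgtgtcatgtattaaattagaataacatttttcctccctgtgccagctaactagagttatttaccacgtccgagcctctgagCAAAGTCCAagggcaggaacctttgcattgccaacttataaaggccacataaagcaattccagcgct

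Apolipoproteins and the proteins that load lipoproteins were called toward liver in 29 of 30 cases (median -7.10). Apoc4 differed by 11.48 ± 0.19, Apoa1, the main protein of high-density lipoprotein, by 11.25 ± 0.34, and Apob, that of low-density lipoprotein, by 10.49 ± 0.38. Apoe, which many cell types make, differed less, by 4.32 ± 0.17. Apod was the member higher in lung, by 2.17 ± 0.24.

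Of 34 genes of blood clotting and clot breakdown, 23 were higher in liver and 10 in lung, 22 and 8 of them at least 4-fold. Toward liver lay the circulating factors, among them F13b (11.78 ± 0.53), the fibrinogen chain Fga (11.50 ± 0.37), F12 (11.16 ± 0.28), F9 (10.85 ± 0.33) and antithrombin, Serpinc1 (10.45 ± 0.23). Toward lung lay proteins of vessel walls and local clot breakdown, among them thrombomodulin (Thbd, 6.55 ± 0.16), the urokinase receptor (Plaur, 6.39 ± 0.15), tissue plasminogen activator (Plat, 6.15 ± 0.25) and von Willebrand factor (Vwf, 5.49 ± 0.16). Factor XIII subunit A (F13a1, 5.56 ± 0.44), which belongs to neither group, was also higher in lung. The 2 subunits of factor XIII therefore differed in opposite directions. F8, the partner of factor IX in clotting, was higher in liver by 3.80 ± 0.27, and tissue factor (F3) in lung by 3.47 ± 0.17. Protein S (Pros1) was not called (0.08 ± 0.13 SE, adjusted p = 0.591).

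Of the complement genes, 26 of 31 tested members were higher in liver (23 by at least 4-fold) and 5 in lung (3 by at least 4-fold). The terminal components C8a, C8b and C9 (10.50 ± 0.41), the lectin Mbl2 (10.85 ± 0.26) and the inhibitor C4bp (10.84 ± 0.13) lay furthest toward liver, while C3 differed by 3.32 ± 0.14. Factor D, encoded by Cfd and a known fat cell product, stood at 4.74, 4.79 and 1.56 on the lung arrays and 0.80, -7.88 and -2.62 on the liver arrays. It was called toward lung by 6.93 ± 2.19. Like Adipoq, the adiponectin gene of fat cells (0.12, 1.04 and -2.57 on lung arrays 4, 5 and 6 and -2.59, -5.98 and -5.28 on liver arrays 1, 3 and 4), it was lowest on liver array 3 among liver arrays and on array 6 among lung arrays, and the part of fat in its difference was not tested. Cd93 (4.72 ± 0.14), an endothelial receptor, and C5ar1 (2.34 ± 0.39), a receptor of leukocytes, were also higher in lung, as were Cd55 (1.2 ± 0.14) and C6 (0.98 ± 0.20).

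Serpins, a family of protease inhibitors, also parted by clade. Of 29 members 19 were higher in liver, of clades A, C, D, F and G, led by Serpina3k (10.998 ± 0.42), Serpina6, Serpinc1 and Serpina1d (10.32 ± 0.35). The 8 higher in lung were of clades B, E, H and I, among them Serpinb6b (6.21 ± 0.19), Serpine2 (3.94 ± 0.21), Serpinb9 (3.37 ± 0.24), Serpinb6a, the collagen chaperone Serpinh1, Serpini1 and Serpinb1a. Serpina3g and Serpinb5 were not called. Serpina12 was above background on no lung array and higher in liver by at least 3.91. Major urinary proteins, lipocalins that carry pheromones, were higher in liver for all 8 genes tested, Mup5 by 11.03 ± 0.35, Mup20 by 10.59 ± 0.15 and Mup21 by 10.12 ± 0.14, whereas the related lipocalin Lcn2, made by neutrophils and epithelia, was higher in lung by 2.04 ± 0.45. This family, and the Cyp, Ugt, Sult and Ces families below, hold paralogs, whose identity in sequence was not computed. Single members are uncertain where probes can bind several.

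Acute phase proteins, which the liver releases in inflammation, were higher in liver for 17 of 23 genes and in lung for 4. Saa4 (11.05 ± 0.56), Saa2 (10.67 ± 0.57), Crp (10.50 ± 0.31) and Hpx lay furthest apart. Crp was above background on only 1 lung array and Saa4 on 2, so the sizes of these 2 differences are uncertain. Saa3, the serum amyloid gene made outside the liver, differed by 2.09 ± 0.16 toward liver. Those higher in lung were Cd14 (2.62 ± 0.23), Socs3 (2.31 ± 0.14), Lcn2 and the shared cytokine receptor Il6st (0.95 ± 0.13). Hepcidin, the hormone of iron balance, was higher in liver in both copies, Hamp2 by 10.29 ± 0.25 and Hamp by 8.13 ± 0.42, with its regulators Tmprss6 (10.13 ± 0.22) and Tfr2 (9.76 ± 0.27). Bmp6, the signal that raises hepcidin, was higher in lung by 4.79 ± 0.27, and so were lactoferrin (Ltf, 6.91 ± 1.51), Atp7a (2.17 ± 0.15), Tfrc (1.84 ± 0.20) and Slc11a2 (0.66 ± 0.16), the last with another spot called toward liver. In all 18 of 24 iron and copper genes were higher in liver, ferritin by little (Ftl1 1.21 ± 0.14, Fth1 0.75 ± 0.15).

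**Figure D2:**
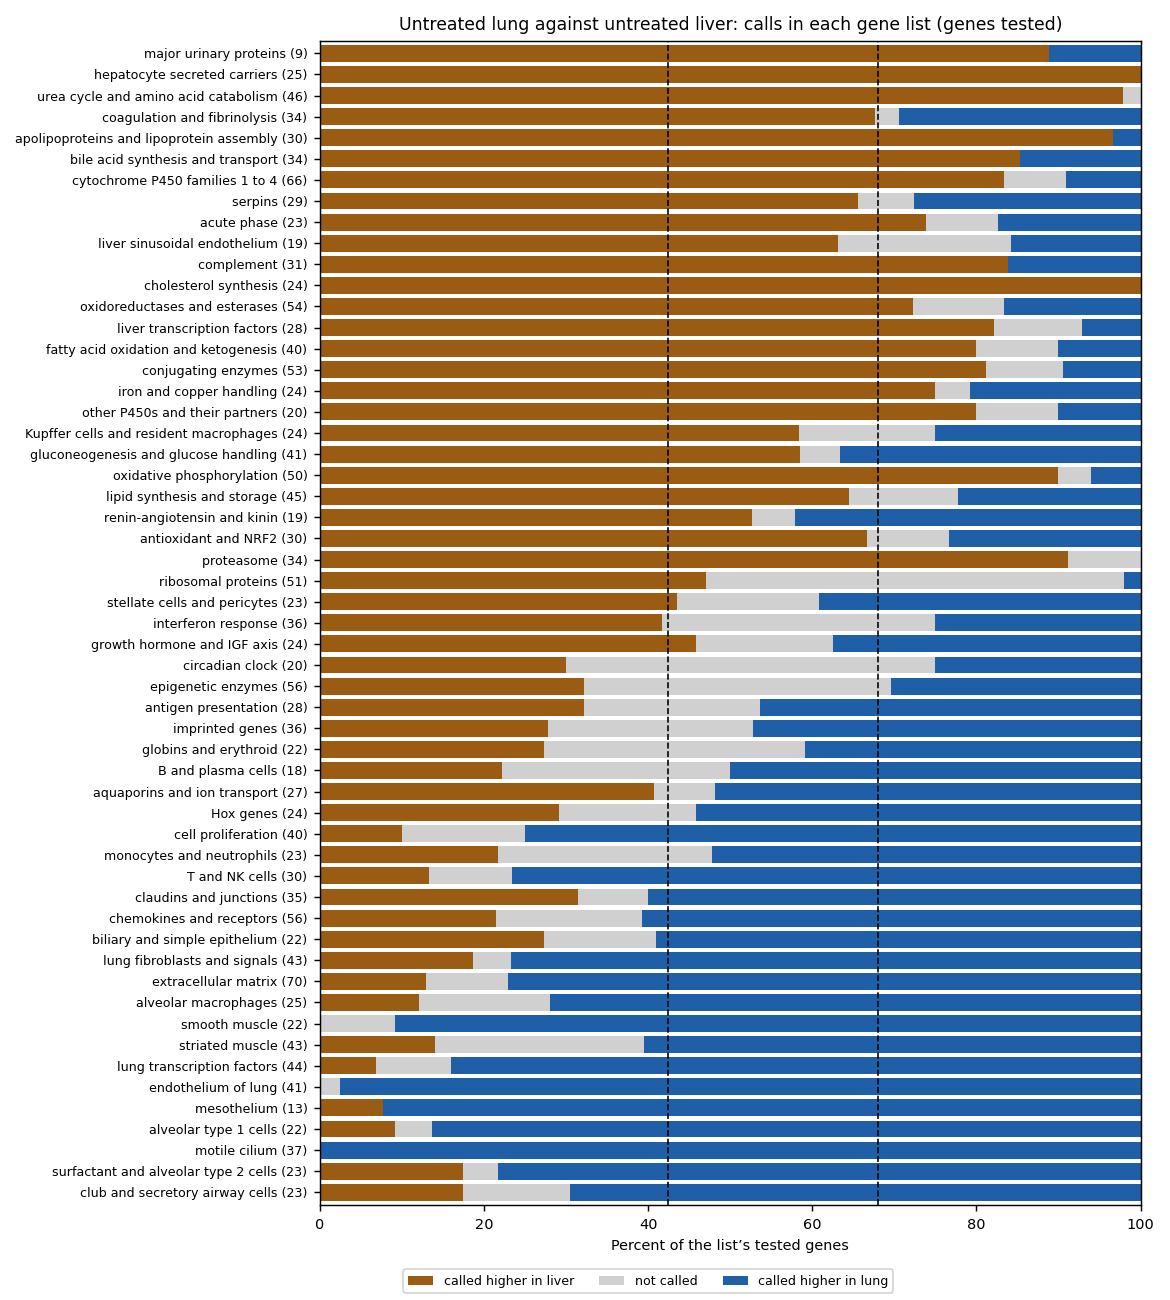
Share of each list's tested genes called higher in liver (brown), not called (grey) and called higher in lung (blue), lists ordered by their median difference and printed with the number tested. The dashed lines mark the shares over all tested genes, 42.4% higher in liver and 32.0% higher in lung, and lists run from the major urinary proteins (8 of 9 with Lcn2 called toward liver) to the airway secretory genes (16 of 23 called toward lung).

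Cytochrome P450 enzymes of families 1 to 4, which oxidise drugs, steroids and fatty acids, were higher in liver for 55 of 66 genes tested, 52 of them by at least 4-fold. The largest differences were those of Cyp3a59 and Cyp2j5, given above, Cyp3a44 (11.77 ± 0.33), Cyp2c40 (11.56 ± 0.43) and Cyp1a2, the hepatic caffeine oxidase (11.56 ± 0.30). Cyp2e1, the ethanol-oxidising P450 that also activates acrylamide, stood at 0.52, 0.11 and 0.19 on the lung arrays and 8.72, 8.61 and 8.98 on the liver arrays and was higher in liver by 8.50 ± 0.17. Only 6 members were higher in lung: Cyp2s1 (6.18 ± 0.53), Cyp1b1 (5.12 ± 0.55), Cyp4b1, known as a lung P450 (4.78 ± 0.14), Cyp1a1 (2.76 ± 0.31), Cyp4f18 (1.55 ± 0.25) and Cyp4f16 (1.07 ± 0.13). Cyp1a1 and Cyp1a2, neighbours of 1 subfamily, thus differed in opposite directions. Beside Cyp2f2, the phenobarbital-responsive Cyp2b10 was not called, at 5.80, 5.52 and 6.07 on the lung arrays and 5.66, 5.75 and 6.12 on the liver arrays (adjusted p = 0.861), while its relatives Cyp2b13 (6.89 ± 1.13) and Cyp2b9 (1.69 ± 0.18) were higher in liver. Their electron donor Por differed by only 0.75 ± 0.19 toward liver. Among 20 other P450s and partners 16 were higher in liver, led by the bile acid enzymes Cyp7a1 (9.99 ± 0.34) and Cyp8b1 (9.41 ± 0.30) and the retinoic acid hydroxylase Cyp26a1 (7.15 ± 0.80). Ptgis, the prostacyclin synthase of vessels (4.24 ± 0.16), and Tbxas1, the thromboxane synthase (1.2 ± 0.29), were higher in lung.

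Conjugating enzymes, which attach glucuronate, sulfate or glutathione to foreign compounds, were higher in liver for 43 of 53 tested genes and in lung for 5. The glucuronosyltransferases Ugt2b1, Ugt2b5 (11.80 ± 0.37), Ugt2b38 (11.51 ± 0.29) and Ugt2b36 (11.18 ± 0.24) led the list. Glutathione transferases differed less: Gstp1 by 1.70 ± 0.15 and Gstm1 by 2.15 ± 0.14 toward liver, with Gsta4, Gstm2, Gsto1 and Mgst3 not called. Mgst2, a microsomal glutathione transferase, was the exception at 3.07, 3.08 and 2.46 on the lung arrays and -4.06, -4.53 and -5.07 on the liver arrays, higher in lung by 7.42 ± 0.30. Sult2b1, a cholesterol sulfotransferase (3.75 ± 0.42), Papss1 (0.87 ± 0.22), Gsto2 (0.74 ± 0.23) and the lung methyltransferase Inmt (0.48 ± 0.17) were also higher in lung.

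Of 54 oxidoreductases and esterases 39 were higher in liver and 9 in lung. The carboxylesterases Ces3b (11.49 ± 0.33) and Ces1c (11.24 ± 0.26), the alcohol dehydrogenase Adh4 (11.21 ± 0.22) and the hydroxysteroid dehydrogenase Akr1c6 (10.95 ± 0.21) lay furthest toward liver. Those toward lung, after Cbr2, were the retinaldehyde dehydrogenase Aldh1a2 (4.70 ± 0.35), Aldh3b1 (4.33 ± 0.18), Cbr3 (3.79 ± 0.25), Fmo2, the flavin monooxygenase of lung (3.21 ± 0.25), the aldose reductase Akr1b3 (2.37 ± 0.17), Aldh1a3 (2.34 ± 0.74), Aldh3a1 (1.87 ± 0.40) and Maoa (1.35 ± 0.15). Aldh1a1, which oxidises retinal in both organs, stood at 6.88, 6.77 and 6.44 on the lung arrays and 6.97, 6.56 and 7.17 on the liver arrays and was not called.

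Amino acid breakdown was among the most one-sided of the lists. Of 46 genes 45 were higher in liver, 44 of them by at least 4-fold (median -8.15), and D-amino acid oxidase (Dao) was not called. Hgd and Cps1, given above, and Hpd, another step of tyrosine breakdown (11.46 ± 0.38), were among those higher in liver. In bile acid synthesis and transport 29 of 34 genes were higher in liver. The canalicular pumps Abcc2 (11.50 ± 0.22) and Abcb11 (11.05 ± 0.27), the anion carrier Slc22a7 (10.82 ± 0.32) and the uptake carrier Slco1b2 (10.59 ± 0.31) led. Slc10a1, the bile salt uptake carrier of hepatocytes, stood at 8.01, 8.0 and 8.03 on the lung arrays and 8.90, 9.08 and 9.02 on the liver arrays at its brightest spot, a difference of only 0.99 ± 0.12 toward liver. The 2 spots of this gene gave differences of -11.60 to -0.99, so the size of its difference depends on the spot. The 5 members higher in lung were export pumps of many tissues, Abcc1 (2.81 ± 0.23), Abcc4 (2.33 ± 0.14), Abcb1b (2.14 ± 0.25) and Abcb1a (1.15 ± 0.20), and the prostaglandin carrier Slco2a1 (0.86 ± 0.13).

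Glucose metabolism held differences in both directions, 24 of 41 genes toward liver and 15 toward lung. Toward liver lay glycogen synthase 2 (Gys2, 10.30 ± 0.35), the regulatory gene Gckr (9.83 ± 0.26) and the gluconeogenic Fbp1 (9.70 ± 0.12). Toward lung lay Ldhb (5.44 ± 0.22), Pfkp (3.96 ± 0.15), Slc2a3 (3.48 ± 0.35) and Pygb (3.01 ± 0.25), forms known from brain, platelets and other tissues. In fatty acid oxidation 32 of 40 genes were higher in liver, led by the hormone gene Fgf21, which was higher in liver by at least 9.40, Acot12 (9.60 ± 0.24), Bdh1 (6.67 ± 0.36) and Cyp4a10 (6.65 ± 0.46). Oxct1, which uses ketone bodies, was higher in lung by 3.36 ± 0.15. Pparg (1.18 ± 0.15), Cpt1c (1.90 ± 0.19) and Acsl4 (0.61 ± 0.22) were the other members higher in lung.

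Cholesterol synthesis was higher in liver for all 24 genes tested, 21 by at least 4-fold, among them Tm7sf2 (6.17 ± 0.23), Sc5d (5.09 ± 0.19) and Dhcr7 (4.07 ± 0.28), with the regulator Srebf2 (0.43 ± 0.15) last. Fatty acid synthesis and storage was mixed, 29 of 45 toward liver and 10 toward lung. The elongase Elovl2 (10.54 ± 0.36), Fabp2 (9.33 ± 0.18), Cideb (7.49 ± 0.17) and the carbohydrate-sensing factor Mlxipl (6.94 ± 0.17) lay toward liver. Toward lung lay Lpcat1, which remodels surfactant lipid (6.63 ± 0.18), the desaturase Scd2 (5.88 ± 0.17), Fabp3 (5.47 ± 0.98) and Cidea (5.37 ± 0.61), followed by Cidec, the fatty acid carrier Cd36 and Plin1. Cidea, Cidec and Plin1 are fat cell genes. Cidea and Plin1 were lowest on lung array 6, at -1.28 and -4.38 against 0.90 and -1.20 on array 5, whereas Cidec stood at 1.80, 2.42 and 2.02 on lung arrays 4, 5 and 6. Another spot of Plin1 was called toward liver and was the brighter once lung array 4 or 5 was left out. Fasn (1.2 ± 0.43) and Acaca (1.26 ± 0.30), which type 2 cells also use for surfactant, were higher in liver by little.

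Of 24 growth hormone and IGF genes 11 were higher in liver and 9 in lung, with a median of -0.33 that became 0.24 under quantile scaling. Those counts lie near the 42.4% and 32.0% over all tested genes. The binding protein Igfbp1 (10.50 ± 0.93), the acid-labile subunit Igfals (9.12 ± 0.23), the prolactin receptor Prlr (7.92 ± 0.20) and Igf1 itself (7.38 ± 0.13) lay toward liver, and Igfbp6 (5.51 ± 0.37), the mRNA binder Igf2bp1 (at least 5.29), Igfbp5 (4.20 ± 0.26) and Igf2 (3.60 ± 0.17) toward lung, with another spot of Igf2 called the other way. In the renin-angiotensin and kinin system, 10 of 19 genes were higher in liver and 8 in lung. The precursors were higher in liver, Agt by 9.08 ± 0.13 and the kininogens Kng2 by 11.20 ± 0.42 and Kng1 by 9.04 ± 0.34. Ace, which makes angiotensin II and breaks down bradykinin at vessel walls, was higher in lung by 3.32 ± 0.28. The kinin receptors differed in opposite directions, Bdkrb2 by 6.18 ± 0.33 toward lung and Bdkrb1 by 1.62 ± 0.16 toward liver. The 2 angiotensin receptor genes of type 1 differed in opposite directions, Agtr1a by 3.79 ± 0.21 toward liver and Agtr1b by at least 3.0 toward lung.

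Of 28 factors listed for liver 23 were higher in liver and 2 in lung. Hnf4a stood at -4.38, -4.16 and -3.37 on the lung arrays and 6.89, 7.13 and 6.88 on the liver arrays, a difference of 10.94 ± 0.28, and Creb3l3 (10.75 ± 0.36) and the bile acid receptor Nr1h4 (9.09 ± 0.22) were also higher in liver. Foxa2, which both organs need in development, stood at 4.21, 4.72 and 4.21 on the lung arrays and 4.25, 4.17 and 4.36 on the liver arrays and was not called, whereas Foxa3 was higher in liver by 6.67 ± 0.13 and Foxa1 in lung by 1.75 ± 0.35. Tox3 (6.16 ± 0.56) was the other factor of the list higher in lung. Of 44 factors listed for lung 37 were higher in lung, 31 by at least 4-fold. Nkx2-1, the master factor of lung epithelium, stood at 2.51, 2.3 and 2.52 on the lung arrays and -7.45, -7.72 and -7.31 on the liver arrays and was higher in lung by at least 9.68, and Tbx4 (9.76 ± 0.37), Foxf2 (9.48 ± 0.15) and Irx2 (at least 9.19) were close behind. Against the list, Sox9 was higher in liver by 4.26 ± 0.50, as were Gata4 (3.91 ± 0.33), known in sinusoidal endothelium and liver mesenchyme, and Etv4 (0.80 ± 0.20). Gata2 (6.26 ± 0.15), Gata3 (4.53 ± 0.21) and Gata1 (at least 3.26) lay toward lung.

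Hox genes, which set position along the body axis, were high enough to be tested for 24 of 39 members. Of these 13 were higher in lung, 10 by at least 4-fold, and 7 in liver, of which only 4 were more than 4-fold above background. Those toward lung were of the anterior and middle paralog groups, led by Hoxa5, known for its part in lung development (5.53 ± 0.37), Hoxa7 (4.47 ± 0.58), Hoxa3 (3.35 ± 0.31) and Hoxb2 (3.19 ± 0.19). Those 4 were Hoxc6 (3.81 ± 0.24), Hoxa9 (1.67 ± 0.16), Hoxa6 (1.14 ± 0.26) and Hoxb3, the last with another spot called toward lung. Hoxc10 (at least 2.94) and Hoxd11 (2.52 ± 0.71) were also called toward liver but lay within 4-fold of background. Without the filter on background the median of the family was -1.14 rather than 1.16, so no direction is given for the family as a whole.

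Of 23 genes of alveolar type 2 cells 18 were higher in lung, 17 by at least 4-fold (median 6.58). After the surfactant proteins came Cxcl15, a chemokine named lungkine (10.32 ± 0.34). Abca3, the pump that fills the surfactant organelle, was bright in both tissues, at 6.11, 6.20 and 6.35 on the lung arrays and 5.58, 5.82 and 5.87 on the liver arrays, and differed by 0.46 ± 0.14. The complement gene Hc (0.82 ± 0.17), the protease Ctsh (0.79 ± 0.14), Fasn and Scd1 (1.89 ± 0.42) were higher in liver. The promoter of Sftpb, at chr6:72304460-72304609 on the plus strand of GRCm38.p6 (RefSeq), is shown because the NKX2-1 motif CTCAAG, in capitals, lies there in 2 copies on the gene's own strand within 150 bases of the start.
Sftpb: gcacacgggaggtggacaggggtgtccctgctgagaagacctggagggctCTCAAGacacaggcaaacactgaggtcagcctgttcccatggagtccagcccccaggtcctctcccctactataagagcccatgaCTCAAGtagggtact

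Of 22 genes of type 1 cells 19 were higher in lung. Aqp5, given above, was followed by Rtkn2 (10.17 ± 0.21), the anchoring protein Akap5 (9.71 ± 0.16) and the sodium channel subunit Scnn1g (9.51 ± 0.37). The 3 subunits of that channel, which clears alveolar fluid, did not move together: Scnn1a was higher in lung by 2.63 ± 0.12, with another spot called toward liver, and Scnn1b was higher in liver by 1.86 ± 0.23. Igfbp2 (2.24 ± 0.26), also a liver product, was higher in liver. Ager, a receptor made chiefly by type 1 cells, stood at 5.79, 6.28 and 6.22 on the lung arrays and 2.38, 2.42 and 2.34 on the liver arrays at its brightest spot, and its 7 spots differed by 2.41 to 12.43, all called toward lung.

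Airway secretory genes were higher in lung for 16 of 23 genes tested (median 6.91), and lung array 6 stood apart in them. Cbr2, Scgb1a1 and Scgb3a2 were alike on the 3 lung arrays within 1 unit. Sftpd, which club and type 2 cells both make, differed by 9.93 ± 0.28. Scgb3a1, a secretoglobin of large airways, stood at 7.44, 6.04 and -0.49 on lung arrays 4, 5 and 6 and at -4.75, -4.28 and -3.50 on the liver arrays. Bpifa1, an antibacterial secretion of the upper airways, stood at 7.27, 5.79 and -1.31 and was not called (3.52 ± 2.11 SE, adjusted p = 0.172). Kcnj16 (5.79 ± 0.19), Muc5ac (2.31 ± 0.32), Pigr, the carrier of secreted antibodies (1.58 ± 0.20), and Hp were higher in liver.

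Motile cilia gave the one list with every tested member higher in lung, 37 of 37, 34 by at least 4-fold (median 6.09). Fam183b, Tmem212 (at least 10.29), Ccdc153 (10.54 ± 0.39) and Ccdc113 (at least 9.71) lay furthest apart. Foxj1, the factor that switches on motile cilia, stood at 2.94, 2.70 and 1.72 on the lung arrays and -5.94, -4.98 and -5.19 on the liver arrays, and the dynein arm genes Dnah5 and Dnah9 differed by at least 8.0 and 7.46 ± 0.40. Mcidas differed by 0.44 ± 0.14 only, with another spot called toward liver. The mean of the list was 1.21, 0.96 and 0.20 on lung arrays 4, 5 and 6. RFX factors, Rfx2 (3.27 ± 0.39) and Rfx3 (1.31 ± 0.21) among those higher in lung, bind the X-box motif in promoters of cilium genes, and 2 promoters that hold it are shown with the match in capitals (RefSeq, GRCm38.p6). Spag16, a protein of the central pair of the axoneme, higher in lung by at least 7.10, lies at chr1:69826820-69826969 on the plus strand, and Cfap44, higher by 3.35 ± 0.33, at chr16:44394649-44394798 on the plus strand with the motif on the other strand.
Spag16: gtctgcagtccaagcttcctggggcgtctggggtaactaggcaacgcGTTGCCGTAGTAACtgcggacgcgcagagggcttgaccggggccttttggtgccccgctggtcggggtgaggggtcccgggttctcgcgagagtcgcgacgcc
Cfap44: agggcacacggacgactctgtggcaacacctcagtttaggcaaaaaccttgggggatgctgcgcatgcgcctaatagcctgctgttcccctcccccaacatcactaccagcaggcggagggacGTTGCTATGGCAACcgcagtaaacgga

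Of 41 genes of lung or general endothelium 40 were higher in lung, 33 by at least 4-fold, and Selp was not called. Tmem100 (9.71 ± 0.38), Prx, a marker of lung capillaries (9.30 ± 0.13), Apln (8.73 ± 0.45) and the carbonic anhydrase Car4 of aerocytes (7.57 ± 0.41) were furthest apart, while the pan-endothelial Pecam1 differed by 2.47 ± 0.14. Of 19 genes listed for liver sinusoids 12 were higher in liver, led by Clec4f (11.20 ± 0.53), better known from Kupffer cells, Dnase1l3 (6.64 ± 0.20), and the scavenger and lectin receptors Stab2 (6.04 ± 0.19) and Clec4g (5.95 ± 0.27). Lyve1, a marker of both sinusoids and lymphatic vessels, stood at 3.21, 3.41 and 4.06 on the lung arrays and -0.17, 0.13 and -0.35 on the liver arrays and was higher in lung by 3.70 ± 0.26, as were Dll4 (3.30 ± 0.16) and Wnt2 (0.93 ± 0.21). Stab1, the relative of Stab2, and the mannose receptor Mrc1 were not called.

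Contractile and matrix genes were mostly higher in lung. Of 22 smooth muscle genes 20 were, none being higher in liver, with Cnn1 at 5.17, 3.81 and 3.23 on the lung arrays and -0.56, -3.12 and -0.44 on the liver arrays. Cnn1 (5.44 ± 0.84), Synpo2 (4.52 ± 0.79), Pln (at least 3.80) and Acta2 (3.94 ± 0.54) differed most, while Tagln stood at 5.05, 4.56 and 3.86 on the lung arrays and 5.22, 4.75 and 4.69 on the liver arrays and was not called. Pln, which heart muscle also makes, stood at -1.86, -3.45 and -4.99 on lung arrays 4, 5 and 6, highest and lowest on the same arrays as the heart muscle markers. Among 70 matrix genes 54 were higher in lung and 9 in liver. Col4a4, a chain of the alveolar basement membrane (8.03 ± 0.23), the microfibril gene Mfap5 (7.67 ± 0.52) and Mgp, an inhibitor of calcification (7.09 ± 0.26), were among the former, and Col4a3, the partner of Col4a4, differed by 5.67 ± 0.39. Elastin (Eln) was higher in lung by 4.51 ± 0.22 and its cross-linker Lox by 5.34 ± 0.40. Col18a1, the source of endostatin, stood at 1.54, 1.42 and 1.36 on the lung arrays and 7.34, 7.55 and 7.46 on the liver arrays and was higher in liver by 6.01 ± 0.13, with fibronectin (Fn1, 3.09 ± 0.18), Vcan (2.27 ± 0.21) and Col14a1 (1.87 ± 0.18). Another spot of Vcan was called toward lung.

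Stellate cells of liver and pericytes of other organs share many genes. Of their list 10 of 23 were higher in liver and 9 in lung. Over all tested genes the shares were 42.4% and 32.0%, so these counts do little to set the list apart. Colec11 (6.43 ± 0.38), Ngfr (4.51 ± 0.31), Hand2 (3.98 ± 0.36) and Reln (3.72 ± 0.14), genes known from stellate cells, lay toward liver, and Higd1b (4.25 ± 0.15), Pdgfra (4.13 ± 0.22), Postn (3.57 ± 0.16) and Cspg4 (3.44 ± 0.15) toward lung. Other spots of Higd1b and Cspg4 were called toward liver. Lrat, which stores vitamin A in stellate cells, was not called (0.21 ± 0.42 SE, adjusted p = 0.672). The mesothelium, the lining of both organs, was higher in lung for 12 of 13 genes tested, with Krt19 (5.73 ± 0.79), Gpm6a (5.16 ± 0.28), Nkain4 (4.94 ± 0.18) and Lrrn4 (4.70 ± 0.36) at the head. Of the 12 all but Krt19 were highest on lung array 6, Upk3b standing at -0.39, -0.21 and 1.09 and Rspo1 at 2.57, 2.97 and 3.84 on lung arrays 4, 5 and 6, and the part of the lining in those differences was not tested. C3 was the one toward liver.

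Fibroblast genes and growth signals were higher in lung for 33 of 43 tested genes and in liver for 8. Limch1 (8.61 ± 0.17), the epidermal growth factor Areg (at least 6.54), Npnt (at least 6.37) and Shh (6.10 ± 0.69) led, with Fgf10 and Fgf7, fibroblast signals to lung epithelium, at least 5.49 and 5.90 ± 0.23 apart. The hedgehog pathway was divided: Shh and its target Gli1 (4.83 ± 0.24) were higher in lung, and the hedgehog receptor Ptch1, at -3.90, -4.13 and -3.58 on the lung arrays and 2.69, 2.26 and 2.47 on the liver arrays, was higher in liver by 6.34 ± 0.20 at its brightest spot and differed by 0.21 at the other. The epidermal growth factor receptors also parted, Erbb2 toward lung by 3.80 ± 0.21 and Egfr toward liver by 3.79 ± 0.40. Igf1, given above, and its receptor Igf1r (2.84 ± 0.21 toward lung) differed in opposite directions, as did hedgehog ligands Shh and Ihh (2.46 ± 0.18 toward liver).

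Epithelial and barrier genes were higher in lung in the main. Of 22 genes of bile ducts and simple epithelia 13 were higher in lung and 6 in liver. Krt7 (8.08 ± 0.19), Tspan8 (6.97 ± 0.69) and Muc1 (6.66 ± 1.0) lay toward lung and Tff3 (5.31 ± 0.34), Pkhd1, a gene of bile duct cilia (4.73 ± 0.30), and Sox9 toward liver. The keratins of simple epithelia differed little, Krt18 by 1.07 ± 0.17 toward liver, with Krt8 not called. Of 35 claudins and junction genes tested 21 were higher in lung and 11 in liver. The connexin of hepatocytes Gjb1 stood at 0.76, 0.89 and 0.75 on the lung arrays and 8.31, 8.32 and 8.51 on the liver arrays and differed by 7.58 ± 0.13, followed by Cldn2 (6.06 ± 0.41), Gjb2 (5.90 ± 0.16) and Cldn1 (4.92 ± 0.19). Toward lung lay Cldn10 (7.36 ± 0.29), Cdh16 (6.58 ± 0.28), Cldn23 (5.78 ± 0.15) and Cldn8 (5.72 ± 0.31), with Cldn5 of endothelium at 4.45 ± 0.16. Another spot of Cdh16 was called toward liver and was the brighter once any 1 lung array was left out. Cldn18, the claudin of type 1 cells, differed by 1.07 ± 0.24 only. Among 27 aquaporins and ion carriers tested 14 were higher in lung and 11 in liver: Aqp8 (10.64 ± 0.31), Aqp9 (9.01 ± 0.21) and Aqp11 (4.25 ± 0.14) were higher in liver and Aqp5, Aqp3 (3.84 ± 0.78), Aqp4 (3.08 ± 0.34) and Aqp1 (1.35 ± 0.17) in lung. Aqp3, of basal cells in large airways, stood at 0.05, -1.69 and -3.29 on lung arrays 4, 5 and 6.

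Of 24 Kupffer cell genes 14 were higher in liver and 6 in lung: after Clec4f came Vsig4 (8.37 ± 0.31), Cd5l (8.32 ± 0.34) and Fcna (6.61 ± 0.38). Of 25 alveolar macrophage genes 18 were higher in lung and 3 in liver, with Chil3 (7.66 ± 0.23), Siglecf (7.59 ± 0.36), Car4, shared with endothelium, and Krt79 (6.81 ± 0.27) in front. Its members toward liver were Fabp1 (6.44 ± 0.20), a fatty acid carrier made in bulk by hepatocytes, Slc7a2 (3.28 ± 0.24) and Fabp5 (1.50 ± 0.45). Of general macrophage genes, Adgre1 (-0.26 ± 0.21 SE), Cd68 (0.23 ± 0.26) and Csf1r (0.36 ± 0.18) were not called, with adjusted p of 0.302, 0.455 and 0.11. Lysozyme 2, a macrophage and type 2 cell product, was higher in lung by 6.56 ± 0.40.

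Genes of circulating leukocytes were more often higher in lung. This held for 12 of 23 monocyte and neutrophil genes, with 5 toward liver, for 23 of 30 T and NK cell genes, with 4 toward liver, and for 9 of 18 B cell genes, with 4 toward liver. Lactoferrin, Nr4a1 (5.14 ± 0.57), Retnlg (4.69 ± 0.75) and Cxcr2 (3.65 ± 0.46) led the first, Eomes (3.99 ± 0.27), Cd2 (3.96 ± 0.21), Ncr1 (3.81 ± 0.53) and Gzma (3.52 ± 0.42) the second, and Ebf1 (3.91 ± 0.93), Ms4a1 (2.88 ± 0.77) and Fcrla (2.88 ± 0.57) the third. A few went the other way, and the coreceptor gene Cd4 was the furthest, at -0.09, 0.19 and 0.24 on the lung arrays and 5.42, 5.32 and 5.16 on the liver arrays, higher in liver by 5.19 ± 0.15. Zap70 (2.91 ± 0.22), a kinase of the T cell receptor, Cd3e (1.90 ± 0.31) and Prf1 (0.59 ± 0.18) were also higher in liver, while the other receptor chains Cd3d (1.73 ± 0.28) and Cd3g (2.01 ± 0.32) were higher in lung. Camp, a neutrophil granule peptide, was higher in liver by 2.99 ± 0.26, as were the B cell genes Cd22 (1.64 ± 0.16), with another spot called toward lung, and Pax5 (0.60 ± 0.20).

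All 9 class II genes on the list were higher in lung, as were the invariant chain and the regulator Ciita (the latter with another spot called toward liver): H2-Aa by 3.17 ± 0.35, H2-DMb1 by 2.98 ± 0.14, H2-Oa by 2.75 ± 0.44 and the invariant chain Cd74 by 2.67 ± 0.24. Class I genes were higher in liver where they differed most, H2-Q10, a secreted class I protein of liver, by 8.74 ± 0.23, Cd1d1 by 5.31 ± 0.17, H2-Q7 by 2.31 ± 0.17 and B2m by 1.48 ± 0.27, but H2-M3 (1.37 ± 0.16) and Mr1 (1.38 ± 0.19) were higher in lung. Of 56 chemokine and receptor genes tested 34 were higher in lung, led by Cxcl15, Cxcl17 (at least 8.49), Cxcl5 (6.76 ± 0.52) and Cxcr4 (6.33 ± 0.38), and 12 in liver, led by Cxcl9 (5.26 ± 0.19), Ccl9 (3.81 ± 0.20), Ackr1 (2.96 ± 0.17) and Ccl24 (2.67 ± 0.23). Interferon response genes showed no common direction, 15 of 36 being higher in liver, with Iigp1 (4.34 ± 0.19) and Oasl1 (3.05 ± 0.17) furthest, and 9 in lung, with Isg20 (2.94 ± 0.20) and Gbp2 (2.75 ± 0.21) furthest.

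Genes that all cells need differed by less. Of 51 ribosomal protein genes 24 were called toward liver and 1 toward lung, but the median was only -0.39 and became 0.47 under quantile scaling, which called 33 toward lung and 2 toward liver, so no direction holds for them. Proteasome genes were higher in liver for 31 of 34 (median -0.91), 17 under quantile scaling, and none differed by as much as 4-fold. Oxidative phosphorylation was higher in liver for 45 of 50 genes (median -1.69, and -1.0 under quantile scaling). Its 3 members higher in lung, Cox6a2 (7.08 ± 0.27), Cox8b (6.56 ± 0.48) and Cox6b2 (1.46 ± 0.17), are the muscle forms of their subunits and, for the last, the testis form. Cox6a2 and Cox8b were highest on lung array 4 and lowest on lung array 6, as were the heart muscle markers.

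Cell cycle genes were higher in lung for 30 of 40 tested and in liver for 4, mostly by less than 4-fold (median 1.2). E2f2 (4.06 ± 0.15) and Bub1 (3.70 ± 0.21) lay toward lung and the thymidine kinase Tk1 (3.47 ± 0.26) toward liver. The list also holds inhibitors of the cycle, and Cdkn1c (3.02 ± 0.13), Cdkn1a (1.33 ± 0.49), Cdkn1b (1.11 ± 0.17) and Cdkn2c (0.91 ± 0.15) were called toward lung. The count toward lung is therefore not one of growth-promoting genes alone. Of 56 enzymes that write or erase chromatin marks 21 were not called and 17 and 18 lay in each direction, with Hdac7 (3.03 ± 0.18) and Setd7 (2.90 ± 0.18) furthest toward lung and Sirt3, a mitochondrial deacylase (3.54 ± 0.14), and Tet1 (4.16 ± 0.20) toward liver, another spot of Tet1 being called toward lung. Imprinted genes, expressed from 1 parental copy, were higher in lung for 17 of 36 and in liver for 10, Nnat (5.78 ± 0.25), Phlda2 (at least 4.93) and Plagl1 (5.33 ± 0.16, with another spot called toward liver) being furthest toward lung and Zim1 (5.35 ± 0.60) and Ddc (4.47 ± 0.18) toward liver. Of 20 clock genes 6 were higher in liver, among them Hlf (3.10 ± 0.21), Clock (0.67 ± 0.15) and Cry1 (0.62 ± 0.18), and 5 in lung, with Ciart (4.99 ± 0.29, another spot called toward liver) and Per3 (2.55 ± 0.35) furthest, and 9 were not called, among them Arntl, Nr1d1, Npas2, Cry2, Per1 and Per2. Antioxidant genes were higher in liver for 20 of 30, Gpx1 by 3.59 ± 0.16, Gclm by 2.98 ± 0.14 and catalase (Cat) by 2.96 ± 0.14, and in lung for 7.

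Globins make up most of the RNA of red cells. The alpha globins Hba-a1 and Hba-a2 were bright in both tissues and not called (0.33 ± 0.20 and 0.34 ± 0.22 SE, adjusted p = 0.172 and 0.196), whereas the beta globins were higher in lung, Hbb-b1 by 3.31 ± 0.57, Hbb-b2 by 3.12 ± 0.48 and Hbb-bt by 2.83 ± 0.37. Of 22 erythroid genes tested 9 were higher in lung, with Ahsp (4.48 ± 0.44) and Gata1 furthest, and 6 in liver. The part of blood in the tissue differences was not tested.

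**Figure D3:**
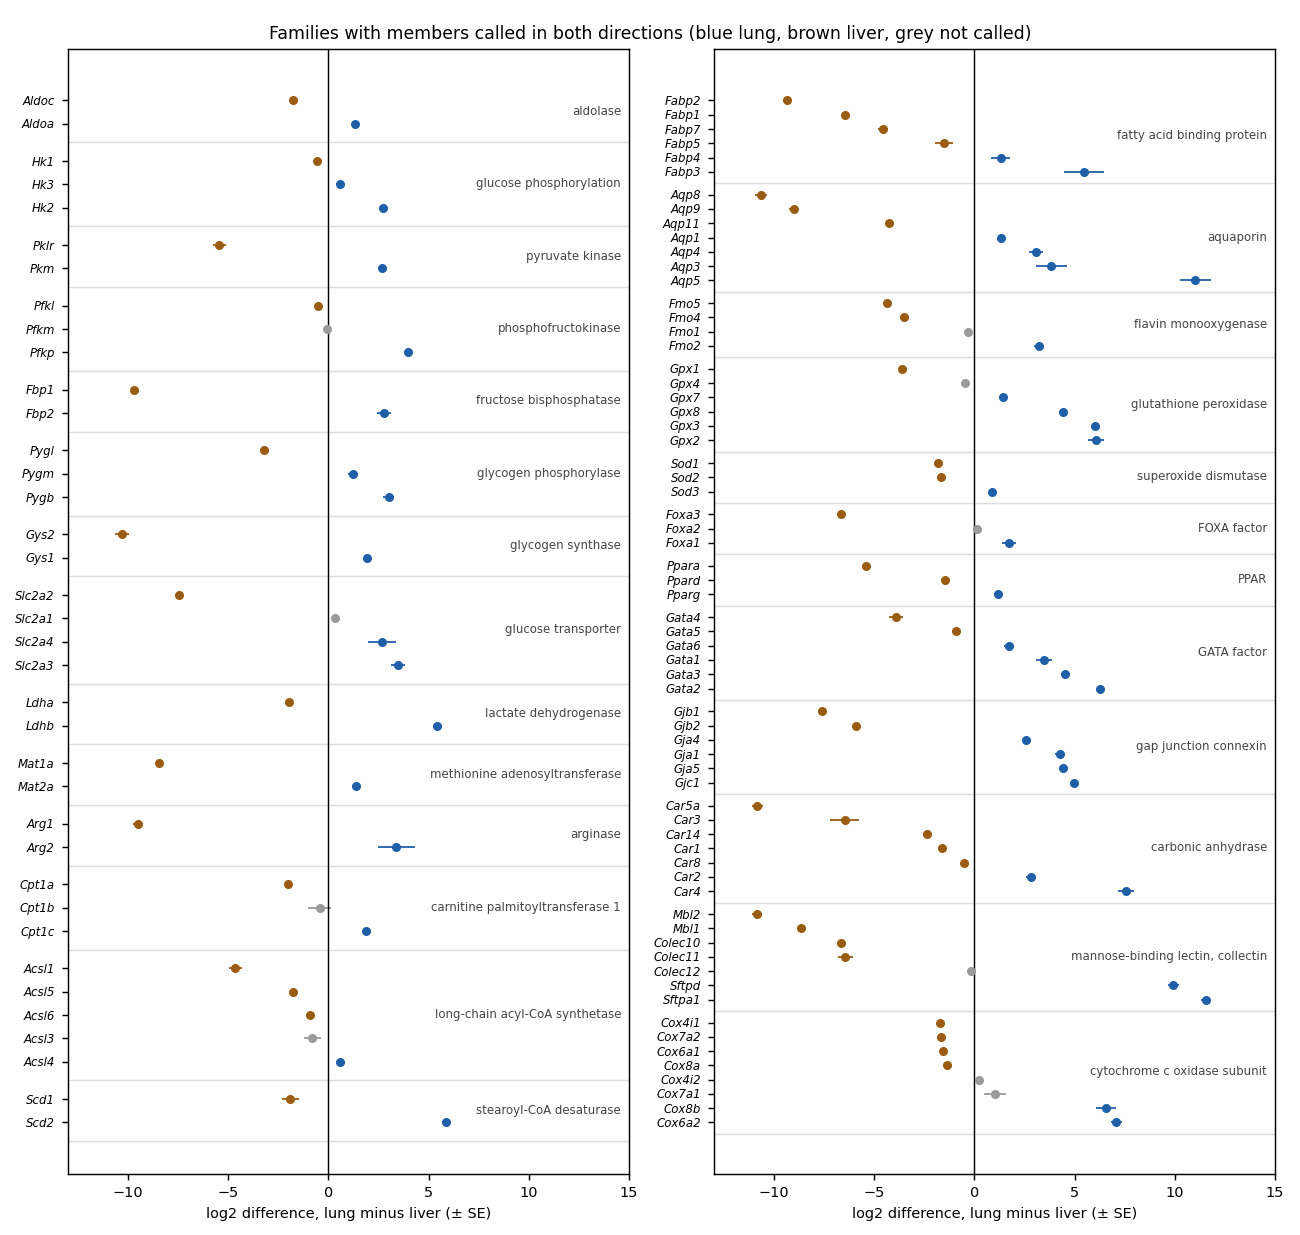
Difference between untreated lung and untreated liver (log2, lung minus liver, points, with bars of 1 SE, n = 3 arrays per tissue) for the members of the 26 families, of 31, that had members called in both directions, blue where called higher in lung, brown where called higher in liver and grey where not called. Members lie on both sides of 0 in each of these families, for example Pklr at -5.44 and Pkm at 2.69. Over all tested genes 32.0% were called higher in lung and 42.4% higher in liver.

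Many enzymes exist as tissue forms, and 31 such families, mostly enzymes and carriers, were set side by side. In 26 of them members were called in both directions. Over all tested genes 32.0% were called toward lung and 42.4% toward liver, so sets of unrelated genes also hold both directions. The families were chosen with earlier results known, and whether 26 exceeds what those shares give was not tested. The form known from liver was higher in liver and the form known from other tissues in lung for several steps of metabolism. Pyruvate kinase gave Pklr 5.44 ± 0.32 toward liver and Pkm 2.69 ± 0.19 toward lung. Among aldolases Aldoa stood at 6.20, 6.23 and 6.22 on the lung arrays and 4.91, 4.69 and 5.0 on the liver arrays and was higher in lung by 1.35 ± 0.14, while Aldoc, the brain form, was higher in liver by 1.78 ± 0.14. For glycogen, Gys2 lay toward liver and Gys1 1.95 ± 0.18 toward lung, Pygl 3.21 ± 0.15 toward liver, and Pygb and Pygm (1.21 ± 0.23) toward lung. Of the hexokinases Hk2 (2.73 ± 0.20) and Hk3 (0.57 ± 0.16) were higher in lung, while Hk1 was higher in liver by 0.55 ± 0.16 with another spot called toward lung. Fbp1 and Fbp2 (2.77 ± 0.36 toward lung) divided in the same way.

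Lactate dehydrogenase subunits parted with Ldha 1.96 ± 0.14 toward liver and Ldhb, at 5.59, 5.55 and 5.37 on the lung arrays and -0.05, -0.26 and 0.48 on the liver arrays, 5.44 ± 0.22 toward lung. Phosphofructokinase had 3 patterns, Pfkl 0.50 ± 0.16 toward liver, Pfkp toward lung and Pfkm not called (-0.05 ± 0.18 SE, adjusted p = 0.815). The glucose carrier of hepatocytes Slc2a2 (7.43 ± 0.21) was higher in liver and Slc2a3 and the insulin-responsive Slc2a4 (2.69 ± 0.70) in lung, with Slc2a1 not called. Slc2a4 stood at 0.97, 0.08 and -1.42 on lung arrays 4, 5 and 6, in step with the muscle markers.

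Gls2, the liver glutaminase, stood at -2.38, -2.31 and -2.33 on the lung arrays and 6.41, 6.16 and 6.55 on the liver arrays and differed by 8.71 ± 0.15. Mat1a, which makes S-adenosylmethionine in liver, differed by 8.45 ± 0.12 and its extrahepatic form Mat2a by 1.38 ± 0.17 toward lung. Arg1 of the urea cycle was higher in liver by 9.48 ± 0.26 and the mitochondrial Arg2 in lung by 3.39 ± 0.94. Arg2 stood at -3.88, -7.57 and -7.08 on liver arrays 1, 3 and 4, and at -2.88, -2.99 and -2.48 on the lung arrays, so liver array 1 lay closest to lung. Haem synthesis had its general enzyme Alas1 not called and its erythroid form Alas2 higher in lung by 1.48 ± 0.45.

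In lipid metabolism Scd1 was higher in liver by 1.89 ± 0.42 and Scd2, at 5.05, 5.15 and 5.12 on the lung arrays and -1.06, -0.62 and -0.62 on the liver arrays, in lung by 5.88 ± 0.17. Among the fatty acid binding proteins Fabp1 (6.44 ± 0.20), Fabp2, Fabp7 (4.55 ± 0.25) and Fabp5 (1.50 ± 0.45) lay toward liver and Fabp3, of heart, and Fabp4, of fat cells and capillaries (1.32 ± 0.48), toward lung. Fabp4 stood at 4.26, 4.44 and 2.63 on lung arrays 4, 5 and 6 against 2.57, 2.45 and 2.35 on the liver arrays. Carnitine palmitoyltransferase 1 gave Cpt1a 1.99 ± 0.14 toward liver, Cpt1c toward lung and the muscle form Cpt1b not called. Of the acyl-CoA synthetases Acsl1 (4.63 ± 0.31) and Acsl5 (1.77 ± 0.13) were higher in liver, Acsl4 in lung, and Acsl3 was not called. Acsl6 passed the test toward liver at -0.90 ± 0.19, but its spot was above background on no liver array and on all 3 lung arrays and the difference became 0.34 under quantile scaling, so it has no settled direction. The PPAR receptors parted with Ppara 5.39 ± 0.23 and Ppard 1.45 ± 0.21 toward liver and Pparg toward lung.

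Fmo5 (4.34 ± 0.14) and Fmo4 (3.52 ± 0.20) were higher in liver, Fmo2 in lung, and Fmo1 was not called. Adh4, Adh1 (5.03 ± 0.17) and Adh5 (2.96 ± 0.14) were higher in liver, while Adh7, known from epithelia of the upper airway and stomach, stood at -1.21, -2.22 and -3.82 on lung arrays 4, 5 and 6 and was not called. Glutathione peroxidases gave Gpx1 toward liver and Gpx2, of mucosal epithelium (6.06 ± 0.41), the secreted Gpx3 (6.01 ± 0.17), Gpx8 (4.44 ± 0.20) and Gpx7 (1.41 ± 0.17) toward lung, with Gpx4 not called. Superoxide dismutase gave the intracellular Sod1 (1.82 ± 0.14) and Sod2 (1.66 ± 0.17) toward liver and the extracellular Sod3 (0.89 ± 0.17) toward lung. Mitochondrial carbonic anhydrase Car5a (10.82 ± 0.27) and Car3 (6.45 ± 0.72), Car14, Car1 and Car8 were higher in liver, and Car4 and Car2 (2.80 ± 0.20) in lung.

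The mannose-binding lectins of plasma, Mbl2 at -3.01, -2.82 and -2.05 on the lung arrays and 8.10, 8.28 and 8.27 on the liver arrays and Mbl1 (8.63 ± 0.21 toward liver), and the collectins Colec10 (6.65 ± 0.22) and Colec11 were higher in liver, the surfactant collectins Sftpa1, at 7.22, 7.32 and 7.46 on the lung arrays and -4.33, -3.72 and -4.58 on the liver arrays, and Sftpd were higher in lung, and Colec12 was not called. Both lysozymes were higher in lung, Lyz1 by 3.47 ± 0.16 and Lyz2 as above. Cytochrome c oxidase repeated the pattern: the general subunits Cox4i1 (1.71 ± 0.12), Cox6a1 (1.54 ± 0.15), Cox7a2 (1.68 ± 0.14) and Cox8a (1.36 ± 0.16) lay toward liver and the muscle subunits Cox6a2 and Cox8b toward lung, with Cox4i2 and Cox7a1 not called. On lung arrays 4, 5 and 6 Cox6a2 stood at 3.55, 3.03 and 2.56 and Cox8b at 2.02, 1.42 and 0.56. Both fell in the same order as the heart muscle markers, and the part of muscle in their differences was not tested. Of the creatine kinases Ckb (2.51 ± 0.24) and the mitochondrial muscle form Ckmt2 (at least 6.81) were higher in lung, the latter at 1.33, -0.19 and -2.42 on lung arrays 4, 5 and 6, while Ckm and Ckmt1 were not called. Hnf4g, the paralog of Hnf4a, was also higher in liver, by 2.42 ± 0.25.

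Of 43 striated muscle genes tested 26 were higher in lung and 6 in liver, the latter led by Pvalb, a calcium buffer of fast muscle (6.07 ± 0.20). Mb, the gene of myoglobin (at least 8.59), Myh6, the heavy chain of atrial myosin (8.22 ± 0.85), and Ankrd1, a protein of the sarcomere (7.38 ± 0.29), were among those higher in lung. Myh6 stood at 6.10, 4.78 and 2.65 on lung arrays 4, 5 and 6 and at -4.02, -4.04 and -3.07 on the liver arrays, so the tissues did not overlap, and another of its spots was called toward liver. Nppa, the atrial natriuretic peptide, stood at 3.07, 0.84 and -4.56 on the same lung arrays and at -4.36, -4.06 and -4.44 on the liver arrays. It overlapped on array 6 and was not called (4.07 ± 1.81 SE, adjusted p = 0.081). In mice heart muscle extends along the pulmonary veins. Myh6 and Nppa are themselves 2 of the 4 heart muscle markers. Mb, at 3.14, 1.91 and -1.0 on lung arrays 4, 5 and 6, was highest and lowest on the same arrays as the marker mean, whereas Ankrd1, at 1.59, 1.99 and 1.18, was highest on array 5 and Myh7, at 2.95, 3.32 and 3.59, on array 6. The part of heart muscle in the tissue difference was not tested.

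**Figure D4:**
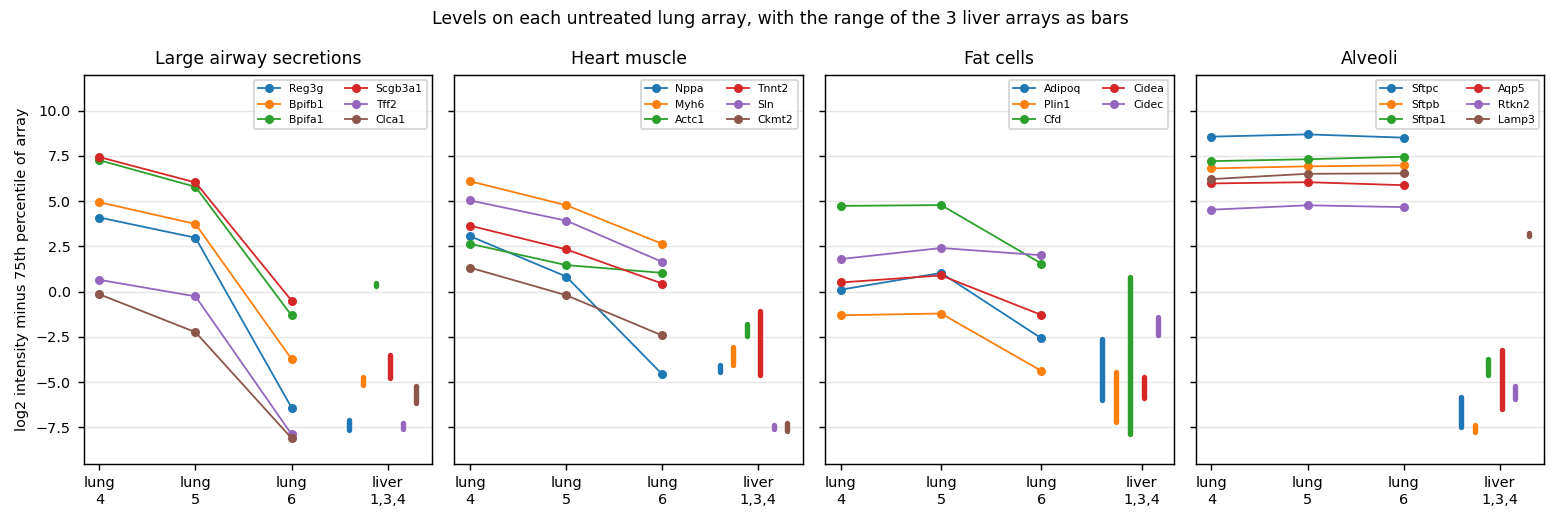
Levels on the 3 untreated lung arrays (log2 intensity minus the 75th percentile, lines join 1 gene's arrays and bars at the right span its 3 liver arrays) for genes of large airways, heart muscle, fat cells and alveoli. Airway and heart genes drop on lung array 6, Reg3g from 4.10 and 2.98 to -6.41, while Sftpc stays between 8.51 and 8.69.

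Lung array 6 differed from the other 2 in a set of genes. The 8 genes with the largest SD among lung arrays were Reg3g, Bpifb1, Tff2, Bpifa1, Scgb3a1, Slc32a1, Clca1 and Nppa. Reg3g, an antibacterial lectin of mucosa, stood at 4.10, 2.98 and -6.41 on arrays 4, 5 and 6, Bpifb1, an airway secretion, at 4.95, 3.75 and -3.72, Tff2, a peptide of mucus, at 0.66, -0.26 and -7.88 and Clca1, a protein of goblet cells, at -0.14, -2.24 and -8.09. All 4 were lowest on array 6, where Reg3g and Tff2 were near their liver levels of -7.34, -7.62 and -7.10 and -7.31, -7.59 and -7.26. Slc32a1, a vesicular carrier of inhibitory transmitters, ran the other way, at -8.24, -7.30 and -0.51. The mean of the 23 airway secretory genes was 4.45, 3.94 and 1.96 on arrays 4, 5 and 6, that of the smooth muscle genes 1.46, 0.81 and 0.44, and that of the type 2 cell genes 4.24, 4.39 and 4.42. Without array 6, Bpifb1 was higher in lung by 9.23 rather than 6.55 ± 2.16, Scgb3a1 by 10.92 rather than 8.51 ± 1.97 and Myh6 by 9.15. Without it Bpifa1 (higher in lung by 6.14, adjusted p = 0.000126), Nppa (by 6.24, adjusted p = 0.000492), Clca1 (by 4.49, adjusted p = 0.00184) and Adh7 (by 2.03, adjusted p = 0.00323) were called toward lung.

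Liver arrays differed in other genes. The 8 with the largest SD there were Dusp15, Vmn1r118, Vmn1r175, Fxyd4, Slitrk6, Kif5a, Ddn and Muc4. Dusp15, a phosphatase, stood at 2.04, -5.87 and -6.59 on liver arrays 1, 3 and 4, Kif5a, a neuronal kinesin, at 2.39, -3.28 and -3.14, Fxyd4, a regulator of the sodium pump, at -0.50, -5.63 and -6.86, and the pheromone receptor genes Vmn1r118 and Vmn1r175 at -0.10, -6.03 and -6.32 and -0.08, -5.10 and -6.73. These 5 were high on array 1 only. Slitrk6, known in neural and bronchial development, stood at -6.12, -6.81 and -0.86 and Muc4, a membrane mucin, at -7.51, -7.83 and -2.08, high on array 4 only, while Ddn, known from brain and kidney podocytes, stood at -2.95, 2.79 and 2.49 and was low on array 1. Slitrk6 on liver array 4 was as high as on the lung arrays (-0.92, -0.79 and -0.94), and its difference was not called. The median SD of a gene was 0.21 among liver and 0.21 among lung arrays. Of the 486 called genes named here, 25 lost their call when some single array was left out. 12 of these differed by less than 2-fold (among them Abca3, Acsl4, Srebf2, Inmt, Mcidas and Pfkl). Among the others, variable within a tissue, were the fat cell genes Cfd, Adipoq, Plin1 and Fabp4, the airway genes Bpifb1 and Reg3g, and Fasn, Fabp5, Alas2, Aldh1a3, Hoxd11 and Vmn1r118.

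The 6 acrylamide arrays gave the same contrast in other samples on the same slides. There 16104 of 22115 genes (72.8%) were called and 7138 by at least 4-fold (32.3%). Of the 7398 4-fold calls on untreated arrays 85.2% were also 4-fold calls on acrylamide arrays in the same direction, which is 88.3% of the calls there. Of 7167 that could be tested on both, 17 had the opposite sign. Liver acrylamide array 30 stood apart: its negative controls set the background limit at an intensity of 16.8, where the other 5 liver arrays had 2.50 to 4.45, and 34287 of its spots lay above, compared with 46450 to 48330. Without that array, as an alternative chosen after seeing the data, 7040 genes were 4-fold calls and 6201 in place of 6301 were shared in direction. Surfactant genes varied among the acrylamide livers: Sftpc stood at 8.79, 8.50 and 8.23 on the lung and 2.63, -0.65 and -5.60 on the liver arrays and Sftpb at 6.88, 6.67 and 6.48 on the lung and -0.47, -2.73 and -5.67 on the liver arrays, in the order 28, 29 and 30 for lung and 27, 29 and 30 for liver. Both were thus highest on liver array 27 and lowest on array 30, where they were below its background limit, and their mean differences were 9.71 and 9.63. Mup6 differed there by 11.53 toward liver and Apoa4 by 11.31. Of the genes that went against their list, Cd4 differed there by 4.67 toward liver, Ptch1 by 5.84 toward liver, Lyve1 by 4.17 toward lung and Mgst2 by 7.48 toward lung. Cyp2f2 stood at 7.80, 7.46 and 7.30 on the lung and 7.57, 7.49 and 7.48 on the liver arrays on acrylamide arrays.

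The tissue difference itself was tested for a change with treatment across all 12 arrays. Limma called none of 23300 genes in this interaction, with 1035 at an unadjusted p under 0.05 and a smallest adjusted p of 0.569. That count rests on liver acrylamide array 30: without it limma called 136 of 23251 genes, 53 shifted toward lung and 83 toward liver, with 2580 at an unadjusted p under 0.05 and a smallest adjusted p of 0.00728. Among the 136 were Sftpc (-7.54 ± 1.09 SE, adjusted p = 0.016), Sftpb (-6.14 ± 0.69, adjusted p = 0.00728), Scgb1a1 (-5.14 ± 0.46) and Scgb3a2 (-3.05 ± 0.33), whose lung minus liver difference was smaller on the acrylamide arrays, with higher levels on liver arrays 27 and 29. With any other of the 12 arrays left out the count was 0 to 8. Why these lung products were seen on liver arrays 27 and 29 was not tested. Over all 12 arrays the smallest p-values toward lung were those of Ppard (1.60 ± 0.23 SE), Crispld2 (1.4 ± 0.25), Emp1 (1.15 ± 0.21) and Bbc3 (1.50 ± 0.28), and those toward liver were those of Gm10408 (-3.28 ± 0.46), Ccdc158 (-1.89 ± 0.31), Oas1d (-1.23 ± 0.22) and Fam181a (-2.13 ± 0.38), with adjusted p of 0.569 to 0.756.

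Some genes of 1 tissue lay side by side. Runs of at least 4 neighbouring protein-coding genes, all at least 4-fold higher in the same tissue, numbered 44 toward liver with 222 of the 3959 4-fold genes and 24 toward lung with 102 of 3439. The longest was the Cyp2c cluster on chromosome 19, where 14 neighbours from Cyp2c55 to Cyp2c70 were higher in liver by 3.04 to 11.56 log2 units. It was followed by 9 Ugt2b and Ugt2a genes on chromosome 5, the retinol dehydrogenase cluster on chromosome 10 (Rdh1, Rdh9, Rdh16, Rdh19, Rdh16f2, Rdh7, Sdr9c7 and Hsd17b6), 8 Sult2a genes on chromosome 7 and 7 genes from Serpina1f to Serpina11 on chromosome 12. Runs toward lung were at most 6 genes long, the first being Trpv2, Lrrc75a, Mmgt2, Zfp287, Zfp286 and Trim16 on chromosome 11, which are of different families except for the 2 zinc finger genes. With genes that have no spot passed over, 12 Mup genes on chromosome 4 formed the second longest run, 7.73 to 12.37 log2 units toward liver. Members of such clusters are paralogs, and a probe can bind the RNA of several, so the count of separately higher genes is uncertain. Runs toward liver also included olfactory receptor genes, such as Olfr608 to Olfr612 on chromosome 7 (2.12 to 4.37 log2 units). As given above, 4-fold calls within 4-fold of background lay only toward liver, and their part in the number of runs was not tested. At a 2-fold limit there were 132 runs toward liver and 104 toward lung.

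**Figure D5:**
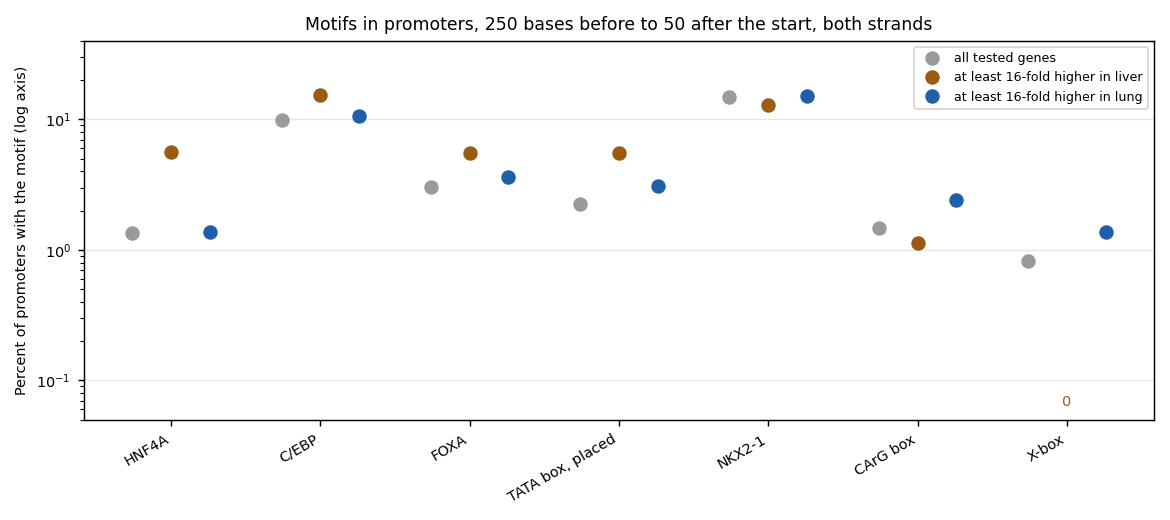
Percent of promoters (250 bases before to 50 after the start) that hold each motif, for all tested genes (grey, 20453 promoters), genes at least 16-fold higher in liver (brown, 971) and in lung (blue, 1156), on a log axis. TATA box, placed, is TATAAA starting 20 to 40 bases before the start. The HNF4A motif is found in 5.66% of liver promoters against 1.34% of all and 1.38% of lung promoters, and the X-box in none of the liver promoters.

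The promoters of the genes that set the tissues apart were searched for 7 motifs on both strands. RefSeq promoters were found for 16518 of the tested genes (20453 promoters), for 793 of 1086 genes at least 16-fold higher in liver and for 909 of 1242 in lung. The HNF4A motif CAAAGTNCA lay in 5.66% of liver promoters, against 1.34% of all tested and 1.38% of lung promoters. The C/EBP motif TTGCNNAA was found in 15.4%, 9.89% and 10.6%, and the FOXA motif TGTTTAC in 5.56%, 3.05% and 3.63% of liver, all and lung promoters.

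The NKX2-1 motif CTCAAG lay in 15.2% of lung, 14.8% of all and 12.8% of liver promoters. The CArG box of muscle genes lay in 2.42% of lung and 1.47% of all promoters, and in 2 of the 17 promoters of smooth muscle genes called toward lung. The X-box lay in 1.38% of lung, 0.817% of all and 0 of 971 liver promoters, and in 4 of the 39 promoters of cilium genes called toward lung (10.3%). Base composition differed as well: the median ratio of observed to expected CpG was 0.25 in liver, 0.50 in lung and 0.61 in all promoters, with a GC content of 50.7%, 57.3% and 57.3%. A TATAAA sequence starting 20 to 40 bases before the start was found in 5.56% of liver, 3.11% of lung and 2.23% of all promoters. The motif shares were not adjusted for GC content. At a 4-fold limit the liver shares were 2.55% for HNF4A and 3.68% for the TATAAA sequence so placed.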

How the data were processed

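Total RNA of 12 samples was hybridised to Agilent 1-colour arrays, and the authors deposited 1 file per array with a linear Cy3 intensity per spot, for which the submitters' processing notes name Feature Extraction 10.7 by Agilent. A background subtraction step is not given in the sources used here. A deposited value table holds the same intensity scaled so that the 75th percentile of an array is 1000 and served as an alternative.

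The 75th percentile of log2 intensity over 61657 non-control spots was subtracted from every array. A spot was above background when brighter than the 95th percentile of 308 negative control spots, and genes above it on at least 3 of the 6 arrays were tested. Spots were named through Entrez IDs (38054), accessions (715) or the file's symbol (2242), and 20646 had no name. The brightest spot stood for a gene. lmFit and eBayes of limma 3.58.1 (R 4.3.3) gave p-values with Benjamini-Hochberg adjustment, and a 4-fold call also required a difference of 2 log2 units. Alternatives were quantile and median scaling, other filters, spot rules and fits, and each array left out. The fit was tested on simulated data. No saturation flag was used.

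The gene lists, families and members were chosen with earlier results of these data known. The genes named were the 12 largest differences in each direction, up to 4 called members in each direction of a list, members against their list, all members of the families of tissue forms, the markers, the 8 genes of largest SD per tissue, members of the 6 longest runs and 4 genes in each direction of the interaction. Other genes (among them Apoe, Trf, Hp, Saa3, Hamp, Fasn, Por, Slc10a1, Foxj1, Krt18 and Cldn18) were named after their values were seen. Some genes covered by these choices are left out of the text and plots and are not reported here.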

Additional observations from a re-analysis of the deposited data

How the results depend on the processing

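Counts of called genes stayed within 1.5 times of the main ones under every scaling, filter, variance model and left-out array, with these exceptions. Testing every spot on its own called 13375 spots toward lung and 21328 toward liver, 6010 and 8585 of them by at least 4-fold, because genes then count once per spot. An offset of 16 before the log, which shrinks differences of dim spots and was chosen after seeing the data, left 2476 genes at least 4-fold higher in liver in place of 3959. On spots above background on all 6 arrays the acrylamide arrays gave 4456 4-fold calls in place of 7138, of which 3998 were shared with the untreated arrays in place of 6301, fewer genes being tested. A 2-fold limit gave 132 runs of neighbours toward liver and 104 toward lung in place of 44 and 24, since smaller differences then count. The interaction of tissue and treatment called 0 genes over 12 arrays and 0 to 136 with 1 array left out, alternatives added after seeing the data, with 136 without liver acrylamide array 30. With 1 array left out, calls ranged from 6000 to 6995 toward lung and from 8598 to 8994 toward liver. Quantile scaling called 8336 genes toward lung and 7995 toward liver, and median scaling 7930 and 8300, so the balance of the directions follows the scaling. Without the background filter 12893 genes were called toward liver and 7194 toward lung.

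The medians of 5 lists changed sign: the Hox genes (-1.14) and the imprinted genes (-0.019) without the background filter, stellate cells and pericytes (0.21) with the mean of a gene's spots, and the growth hormone and IGF axis (0.24) and the ribosomal proteins (0.47) under quantile scaling. Of 486 called genes named, 409 kept call and direction under every alternative. Reversals came mostly from another spot of the gene: Cd22 (1.54), Cdh16 (-2.75), Ciart (-1.41), Ciita (-3.07), Cp (1.85), Cspg4 (-1.24), Higd1b (-1.54), Hk1 (3.09), Hoxb3 (2.57), Igf2 (-1.20), Mcidas (-0.79), Myh6 (-5.35), Plagl1 (-2.36), Plin1 (-1.43), Scnn1a (-1.43), Slc11a2 (-2.14), Tet1 (2.53) and Vcan (3.53). The mean of spots turned Ciita (-0.76), Slc11a2 (-0.44) and Vcan (0.84), the stricter filter Ciart (-1.41), and quantile scaling Acsl6 (0.34). With 1 array left out the difference ranged from -2.82 to 6.82 for Cdh16, negative without any 1 lung array, and from -1.61 to 4.64 for Plin1, negative without lung 4 or lung 5, another spot of the gene then being used.

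No paired analysis was possible because the untreated tissues share only the title number 4. With the title number as a random replicate block over all 12 arrays 7070 genes were called toward lung and 9491 toward liver, with a consensus correlation of -0.18. Spots near background limit small differences, and low liver levels are cut off at a higher level relative to the percentile than low lung levels.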
